A study of Mus musculus with 33 samples.

Results

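The MHC class I antigen presentation genes described here are the class I heavy chains H2-K1 and H2-D1, the shared light chain B2m, the peptide transporter subunits Tap1 and Tap2, the loading factor Tapbp, the inducible proteasome subunits Psmb8, Psmb9 and Psmb10, and the transactivator Nlrc5. They were taken by gene symbol from a table of 21671 genes. All 10 symbols were present, and all 10 genes passed the filter on low values in both arms of the study. Total RNA had been sequenced from 33 livers and liver tumours of C57BL/6 mice, in a study of MYC and an activated form of β-catenin in the liver. In the short-term arm, animals aged 6 to 8 weeks were given the virus AAV8-TBG-CRE, in which the hepatocyte promoter TBG drives Cre recombinase, and their livers were collected on day 4. The 4 groups of 5 livers came from wild-type animals, from animals with the beta-cat Ex3 allele, whose exon 3 Cre removes so that β-catenin escapes degradation (Ex3 livers), from R26-lslMYC animals with a MYC transgene that Cre switches on (MYC livers), and from animals with both alleles (MYC+Ex3 livers). In the tumour arm, 3 primary liver nodules came from Albeta-CreERT2/R26-lslMYC animals (MYC tumours) and 3 from Albeta-CreERT2/R26-lslMYC/beta-catEx3 animals (MYC+Ex3 tumours), where CreERT2 is a Cre that tamoxifen activates. These were set against 7 livers of wild-type animals taken 4 days after an injection of 4-hydroxytamoxifen (4-OHT livers), and the labels do not say whether these animals carried the Cre. For the tumours the labels give neither age, time nor treatment, nor whether the nodules came from separate animals. Tumour growth, age, tissue and the acute treatment of the controls therefore cannot be told apart in the tumour arm, and p-values measure the spread between these samples, which may in part be technical.

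Class I molecules display short peptides from inside a cell to CD8 T cells. The proteasome cuts proteins into peptides, and under interferon its standard catalytic subunits are exchanged for the inducible ones encoded by Psmb8, Psmb9 and Psmb10. The TAP transporter carries peptides into the endoplasmic reticulum, tapasin (Tapbp) bridges TAP and the empty heavy chain, and the loaded heavy chain reaches the surface with β2-microglobulin (B2m). Nlrc5 is a coactivator of most of these genes, acting on the X and CCAAT boxes of their promoters beside NF-κB and interferon response elements. Hepatocytes carry less class I than the Kupffer, endothelial and other immune cells of the liver, so that liver RNA holds class I transcripts from several cell types.

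The promoters of the heavy chains, the light chain and the transporter are shown. These genes span the smaller measured changes of the chains and the larger measured fall of the transporter in the tumours. RefSeq promoter windows (GRCm38.p6) were found for 8 of the 10 genes. Tap2 and Nlrc5 had none. The 250 bases before each annotated start were searched on both strands for the NF-κB consensus, an interferon response motif (GAANNGAAA, or these letters with 1 more A after GAA), the core of the X2 box (TGACG) and a CCAAT box (CCAAT). These were present in 7.25%, 8.82%, 17.8% and 33.9% of 32851 windows of that length. The windows read 5′ to 3′ along the gene with motif matches in capitals, and no matches overlapped.
H2-K1, chr17:34000348-34000597, minus strand: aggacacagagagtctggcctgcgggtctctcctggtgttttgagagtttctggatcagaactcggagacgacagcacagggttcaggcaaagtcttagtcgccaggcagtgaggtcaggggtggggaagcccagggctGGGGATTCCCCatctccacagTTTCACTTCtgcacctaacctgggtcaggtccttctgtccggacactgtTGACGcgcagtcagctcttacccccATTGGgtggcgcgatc
H2-D1, chr17:35262844-35263093, plus strand: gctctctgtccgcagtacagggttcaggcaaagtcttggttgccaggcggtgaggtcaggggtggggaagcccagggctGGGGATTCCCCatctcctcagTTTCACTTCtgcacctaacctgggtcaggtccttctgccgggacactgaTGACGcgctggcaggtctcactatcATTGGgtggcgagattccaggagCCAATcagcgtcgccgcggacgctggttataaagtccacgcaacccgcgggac
B2m, chr2:122147437-122147686, plus strand: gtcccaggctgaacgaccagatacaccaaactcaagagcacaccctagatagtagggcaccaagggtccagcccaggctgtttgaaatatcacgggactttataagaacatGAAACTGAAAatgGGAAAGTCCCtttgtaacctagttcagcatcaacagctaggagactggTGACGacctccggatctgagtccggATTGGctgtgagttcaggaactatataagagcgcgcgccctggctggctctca
Tap1, chr17:34187306-34187555, plus strand: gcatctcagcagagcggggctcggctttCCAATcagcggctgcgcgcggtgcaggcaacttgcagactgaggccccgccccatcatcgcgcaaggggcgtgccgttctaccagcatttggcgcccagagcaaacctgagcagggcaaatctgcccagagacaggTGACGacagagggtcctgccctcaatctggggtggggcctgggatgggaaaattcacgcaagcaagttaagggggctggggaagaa
H2-K1, H2-D1 and B2m each held all 4 motifs, and the windows of the 2 heavy chains shared an unbroken run of 47 bases around the NF-κB match. Tap1 and Psmb9 each held 1 X2 box core and 1 CCAAT box, with no match to the NF-κB and interferon response letters searched. The Psmb9 window lies on the strand opposite to that of Tap1 and overlaps it by 225 bases. Tapbp held 2 CCAAT boxes, and the windows of Psmb8 and Psmb10 held none of the 4 motifs. In RefSeq order, Psmb9, Tap1, Psmb8 and Tap2 follow each other on chromosome 17 with no other protein-coding gene between them. A match describes the letters of these windows, and no binding was measured.

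Levels are given as RPKM, a read count divided by gene length in kilobases and by the library total in M reads, which lets genes be compared within a library. The short-term livers held 3.75 to 7.31 M reads in genes and the tumour arm 6.65 to 9.82 M. RPKM of the tumour arm refer to totals of 23.9 to 38.8 M and run lower, so the arms were not compared. Keratin RNA, a summed RPKM of Krt5, Krt14 and Krt17 over 1, was present in 3 libraries each of the wild-type, Ex3 and MYC+Ex3 short-term groups, in 1 MYC liver and in 0 libraries of the tumour arm, a split the labels do not give. Read from Xist and Ddx3y, 4 of the 7 4-OHT livers, all 3 MYC tumours and 2 MYC+Ex3 tumours were from males. The summed RPKM of 9 hepatocyte markers such as Alb and Ttr was 289 to 392 in 4-OHT livers, 250 to 393 in MYC tumours and 238 to 307 in MYC+Ex3 tumours. Of these markers 0 of 9 passed the test in MYC tumours (limma) and 4 of 9 were lower in MYC+Ex3 tumours, with log2 changes of -0.35 to -0.73. Of all genes tested, 13.7% and 18.4% were lower. When each library was rescaled by its median ratio, 5 and 7 of 9 were lower, beside 2764 and 3211 of all 11854 genes. Each library is bulk tissue, so fewer cells of a type and less RNA per cell cannot be told apart in any result.

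Most of the class I presentation genes were lower in the tumours than in 4-OHT livers. In MYC tumours 8 of 10 were lower and 0 higher, and in MYC+Ex3 tumours 9 of 10 were lower and 0 higher (limma on log2(RPKM + 1), Benjamini-Hochberg adjusted p under 0.05). Among all 11854 genes tested, 13.7% were lower and 36.2% higher in MYC tumours, and 18.4% lower and 42.3% higher in MYC+Ex3 tumours. The median log2 change of the 10 genes was -0.95 and -1.31, beside 0.19 and 0.23 for all genes tested. In the sum over the 10 genes, 4-OHT livers held 129 to 178 RPKM, MYC tumours 92.6 to 120 and MYC+Ex3 tumours 71.9 to 85.1, with no overlap between any 2 of the groups. Rescaling by the median ratio moved the medians of all genes to 0.01 and 0.05 and the share of higher genes among those called from 72.6% to 53.7% in MYC tumours and from 69.7% to 55.6% in MYC+Ex3 tumours, and 10 of 10 class I presentation genes were then lower in both. Both comparisons use the same 7 control livers, so they are not independent of each other. The tumours lay below all livers without overlap for 5 of the 10 genes in MYC tumours, where 8.89% of all genes did, and for 9 of 10 in MYC+Ex3 tumours, where 17.8% did. Log2 changes are differences on the log2(RPKM + 1) scale throughout, a scale that makes the changes of low genes such as Nlrc5 and Tap1 look smaller.

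**Figure D1:**
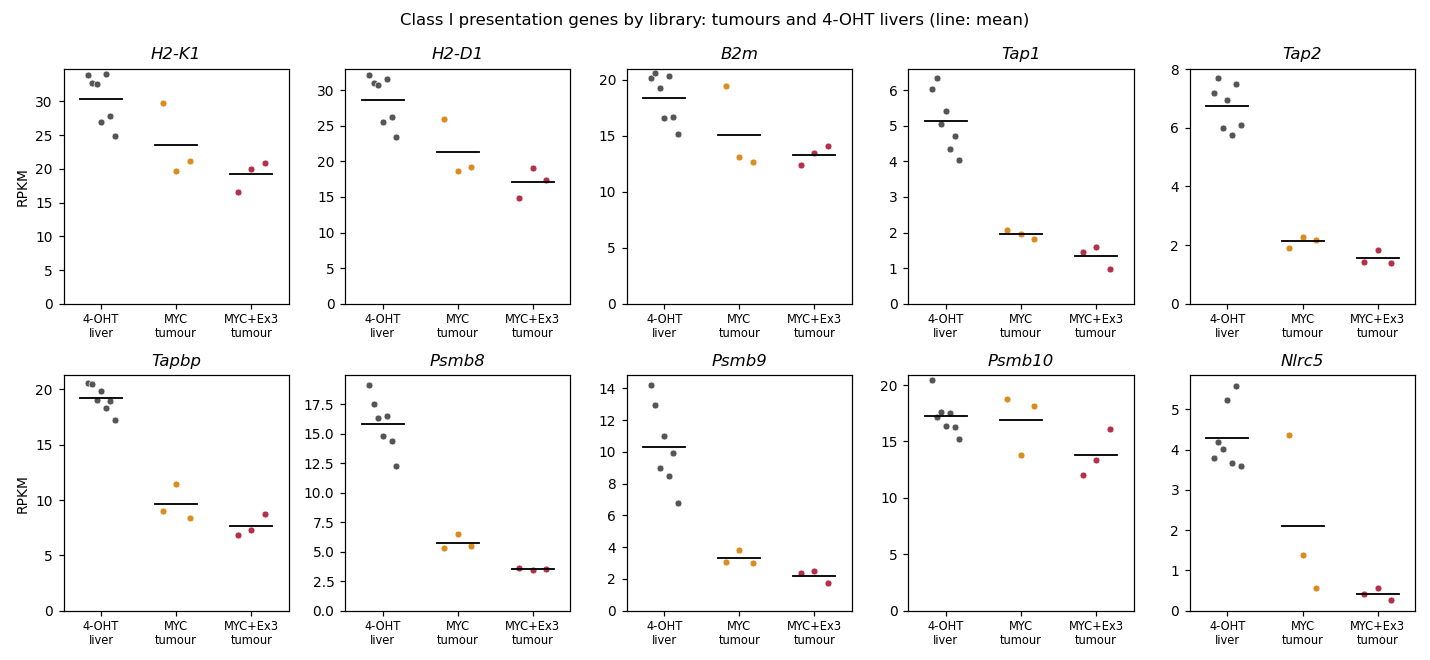
RPKM of each of the 10 genes (1 panel each) by library in 4-OHT livers (7), MYC tumours (3) and MYC+Ex3 tumours (3). Points are libraries and lines are group means. Tap1, Tap2, Tapbp, Psmb8 and Psmb9 lie lower in every tumour than in any 4-OHT liver, while Psmb10 overlaps in both comparisons and MYC tumour replicate 1 stays within the range of the 4-OHT livers for H2-K1, H2-D1, B2m and Nlrc5.

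The catalytic subunits of the inducible proteasome were not lowered alike. Psmb8, the inducible counterpart of Psmb5, had 12.3 to 19.2 RPKM in 4-OHT livers (median 16.3), 5.31, 6.48 and 5.45 in the 3 MYC tumours and 3.60, 3.48 and 3.52 in the 3 MYC+Ex3 tumours. The 3 groups followed each other without overlap, and the MYC+Ex3 tumours lay close together. Its log2 change from 4-OHT livers was -1.31 ± 0.122 (SE) in MYC tumours (limma adjusted p = 2.92e-06) and -1.88 ± 0.122 in MYC+Ex3 tumours (limma adjusted p = 6.17e-08). Psmb9, which replaces Psmb6, had 6.80 to 14.2 RPKM in 4-OHT livers (median 9.91), 3.06, 3.83 and 3.02 in MYC tumours and 2.36, 2.49 and 1.73 in MYC+Ex3 tumours. All 6 tumours lay below the lowest liver, although the livers themselves spread over a wide range. On the log2 scale Psmb9 changed by -1.37 ± 0.178 in MYC tumours (limma adjusted p = 4.22e-05) and by -1.80 ± 0.178 in MYC+Ex3 tumours (limma adjusted p = 1.84e-06).

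Psmb10, which replaces Psmb7, kept a level near that of the livers. It had 15.2 to 20.4 RPKM in 4-OHT livers (median 17.2), 18.7, 13.8 and 18.1 in MYC tumours and 12, 13.4 and 16.1 in MYC+Ex3 tumours. The groups overlapped in both comparisons, with 1 MYC tumour and 2 MYC+Ex3 tumours below every liver. Its log2 change was -0.04 in MYC tumours (95% interval -0.30 to 0.23, limma adjusted p = 0.83) and -0.30 in MYC+Ex3 tumours (-0.57 to -0.03, limma adjusted p = 0.0502). Rescaling of each library by its median ratio moved these to -0.25 (limma adjusted p = 0.0348) and -0.51 (limma adjusted p = 0.000251). In MYC+Ex3 tumours Psmb10 lay at the threshold, and it also passed with a pseudocount of 0.1 (limma adjusted p = 0.0493), when only the groups compared were fitted (0.0318) and with weights on libraries (0.00479). In the authors' deposited table Psmb10 had an adjusted p of 0.0501 in MYC tumours and was lower in MYC+Ex3 tumours.

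The standard subunits Psmb5, Psmb6 and Psmb7 passed the test in none of the 9 comparisons. In the tumours their log2 changes were 0.16 to 0.29, near the median of all genes, and rescaling by the median ratio brought their median to -0.03 in MYC and -0.01 in MYC+Ex3 tumours. The ratio of each inducible subunit to its standard counterpart, taken within a library on the log2(RPKM + 1) scale, does not depend on how libraries are scaled except through the pseudocount. The ratio of Psmb8 to Psmb5 was -0.27 to 0.02 in 4-OHT livers, -1.87, -1.24 and -1.71 in MYC tumours and -2.07, -2.38 and -2.46 in MYC+Ex3 tumours. On a linear scale the median ratio went from 0.875 in 4-OHT livers to 0.272 in MYC tumours and 0.156 in MYC+Ex3 tumours. The ratio of Psmb9 to Psmb6 was -1.37 to -0.61 in 4-OHT livers, -2.88, -2.16 and -2.57 in MYC tumours and -2.73, -2.85 and -3.30 in MYC+Ex3 tumours. In both pairs every tumour had a lower ratio than every liver.

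The mean differences of the ratio were -1.48 (MYC) and -2.17 (MYC+Ex3) for Psmb8 to Psmb5, and -1.59 and -2.01 for Psmb9 to Psmb6. In a two-sided exact permutation test each of these 4 had p = 0.0167, the smallest that 3 libraries against 7 allow, and an adjusted p of 0.08 over 24 such tests. The ratio of Psmb10 to Psmb7 was 1.15 to 1.44 in 4-OHT livers, 0.95, 1.09 and 1.31 in MYC tumours and 0.79, 0.77 and 0.97 in MYC+Ex3 tumours. It overlapped between livers and MYC tumours (difference -0.20, exact permutation p = 0.0667, adjusted 0.214) and not between livers and MYC+Ex3 tumours (-0.47, exact permutation p = 0.0167, adjusted 0.08). The ratio of Psmb10 to Psmb7 thus differed by less than those of the other pairs, from 2.71 to 2.31 and 1.84 in linear medians. Without any 1 of the 3 tumours of a group the smallest p these tests allow is 0.0556.

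**Figure D2:**
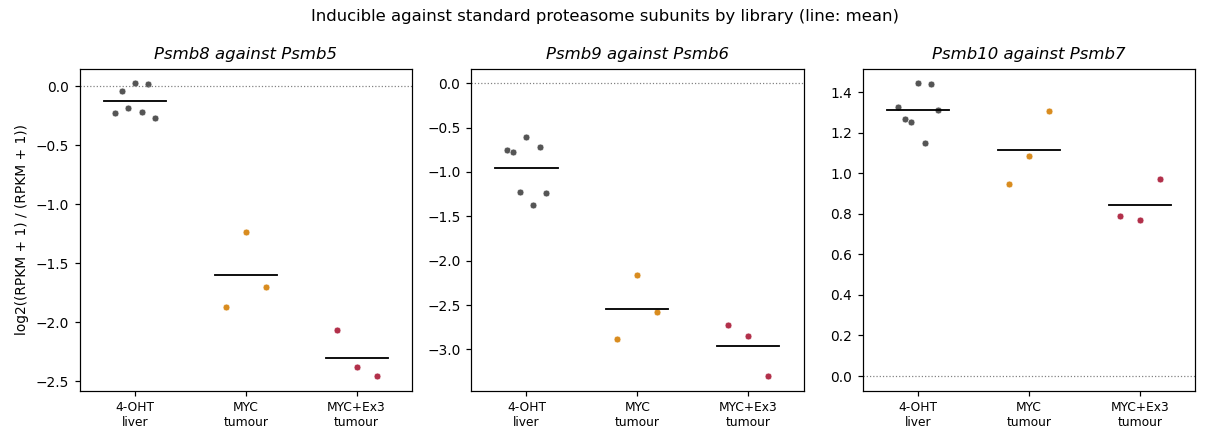
Log2 ratio of each inducible proteasome subunit to its standard counterpart, from RPKM + 1, by library for 4-OHT livers, MYC tumours and MYC+Ex3 tumours. Points are libraries and lines are group means. The ratios of Psmb8 to Psmb5 and of Psmb9 to Psmb6 are lower in all 6 tumours than in any of the 7 4-OHT livers. The short-term groups, which are not drawn, overlapped in all 3 ratios.

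The peptide transporter fell as a pair. Tap1 had 4.02 to 6.34 RPKM in 4-OHT livers (median 5.04), 2.08, 1.96 and 1.82 in MYC tumours and 1.45, 1.59 and 0.99 in MYC+Ex3 tumours. Tap2 had 5.76 to 7.71 RPKM in 4-OHT livers (median 6.96), 1.92, 2.29 and 2.19 in MYC tumours and 1.43, 1.84 and 1.38 in MYC+Ex3 tumours. For both subunits the livers, the MYC tumours and the MYC+Ex3 tumours formed a descending order without overlap. On the log2 scale Tap1 changed by -1.04 ± 0.130 in MYC tumours (limma adjusted p = 2.95e-05) and by -1.38 ± 0.130 in MYC+Ex3 tumours (limma adjusted p = 1.14e-06). Tap2 changed by -1.30 ± 0.109 in MYC tumours (limma adjusted p = 1.24e-06) and by -1.60 ± 0.109 in MYC+Ex3 tumours (limma adjusted p = 8.16e-08). Tap2 rested on 408 to 663 reads in the livers, 114 to 221 in MYC tumours and 106 to 137 in MYC+Ex3 tumours.

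Tapbp, the tapasin that edits the peptide cargo, had 17.2 to 20.6 RPKM in 4-OHT livers (median 19.1), 8.98, 11.5 and 8.40 in MYC tumours and 6.82, 7.33 and 8.70 in MYC+Ex3 tumours. Every tumour lay well below the narrow range of the livers, while the 2 tumour groups overlapped. Tapbp changed by -0.94 ± 0.112 on the log2 scale in MYC tumours (limma adjusted p = 2.17e-05) and by -1.23 ± 0.112 in MYC+Ex3 tumours (limma adjusted p = 8.73e-07). Tap1, Tap2, Tapbp, Psmb8 and Psmb9 passed the test in both comparisons under every alternative setting and with every single library left out.

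In RPKM the class I chains themselves changed less. Their reads rose little with the library total, as given below, and whether this makes their changes look smaller was not tested. H2-K1 had 24.9 to 34.0 RPKM in 4-OHT livers (median 32.6), 29.7, 19.7 and 21.2 in MYC tumours and 16.6, 20.0 and 20.9 in MYC+Ex3 tumours. H2-D1 had 23.4 to 32.2 RPKM in 4-OHT livers (median 30.7), 25.9, 18.7 and 19.2 in MYC tumours and 14.9, 19.1 and 17.4 in MYC+Ex3 tumours. For both heavy chains MYC tumour replicate 1 lay inside the range of the livers and the other 5 tumours below it. H2-K1 changed on the log2 scale by -0.37 ± 0.145 in MYC tumours (limma adjusted p = 0.0462) and by -0.64 ± 0.145 in MYC+Ex3 tumours (limma adjusted p = 0.0017). H2-D1 changed by -0.42 ± 0.138 in MYC tumours (limma adjusted p = 0.0207) and by -0.71 ± 0.138 in MYC+Ex3 tumours (limma adjusted p = 0.000518). The 2 heavy chains are closely related paralogs of each other and of the H2-Q genes. As the handling of shared reads is not given in the sources used here, their separate levels are uncertain.

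B2m, the light chain of all class I molecules, had 15.2 to 20.6 RPKM in 4-OHT livers (median 19.2), 19.5, 13.1 and 12.7 in MYC tumours and 12.4, 13.4 and 14 in MYC+Ex3 tumours. Again MYC tumour replicate 1 reached the upper part of the liver range, and the other 5 tumours lay below it. The log2 change of B2m was -0.28 in MYC tumours, which did not pass the test (95% interval -0.58 to 0.01, limma adjusted p = 0.104), and -0.43 ± 0.140 in MYC+Ex3 tumours, which did (limma adjusted p = 0.015). The authors' deposited table calls B2m lower in MYC tumours, with a log2 fold change of -0.48 and an adjusted p of 0.00736. That authors' deposited table calls 9 of the 10 genes lower in MYC tumours, all but Psmb10, and 10 of 10 lower in MYC+Ex3 tumours.

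The values of these 3 abundant chains moved with the library total. Over the libraries of the tumour arm, with group means removed, log2 reads rose by 0.11 for H2-K1, 0.19 for H2-D1 and 0.13 for B2m per log2 unit of the total, beside a median of 0.80 for all genes tested, 0.99 for Tapbp and 1.13 for Tap2. Among longer genes, the highest read density of a library ran from 1612 to 1810 reads per kb across the tumour arm. H2-K1 had 921 to 1061 reads per kb in 4-OHT livers. Of the 13 libraries, MYC tumour replicate 1 had the lowest total, 23.9 M, and the other MYC tumours had 38.8 and 36.9 M. In recovered reads H2-K1 was at 2121 to 2443 in 4-OHT livers, 1634, 1760 and 1801 in MYC tumours and 1389, 1375 and 1489 in MYC+Ex3 tumours. B2m was at 1391 to 1521 reads in 4-OHT livers, 1122, 1231 and 1131 in MYC tumours and 1086, 969 and 1047 in MYC+Ex3 tumours. In reads, which are not adjusted for depth, the tumours lay below the livers without overlap for H2-K1, H2-D1 and B2m. The share of all genes that did so in reads was not counted. In reads without scaling, limma called 1473 of 11854 genes lower in MYC tumours and 2065 in MYC+Ex3 tumours.

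The calls on the heavy and light chains in MYC tumours depended on single libraries, and that on H2-K1 was lost in 5 of 11 other settings and in 9 of 13 fits that left out 1 library. Without MYC tumour replicate 1 the log2 change of H2-K1 was -0.54 (limma adjusted p = 0.00499) and that of B2m -0.47 (limma adjusted p = 0.00793). Without MYC tumour replicate 2 the adjusted p of limma was 0.208 for H2-K1 and 0.0944 for H2-D1, and without replicate 3 it was 0.169 and 0.0969. Against only the 3 livers with S15 in their titles it was 0.245 for H2-K1 and 0.158 for H2-D1. In MYC+Ex3 tumours the call on B2m was lost against those 3 livers (limma adjusted p = 0.127) and without MYC+Ex3 tumour replicate 1 (limma adjusted p = 0.0647).

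**Figure D3:**
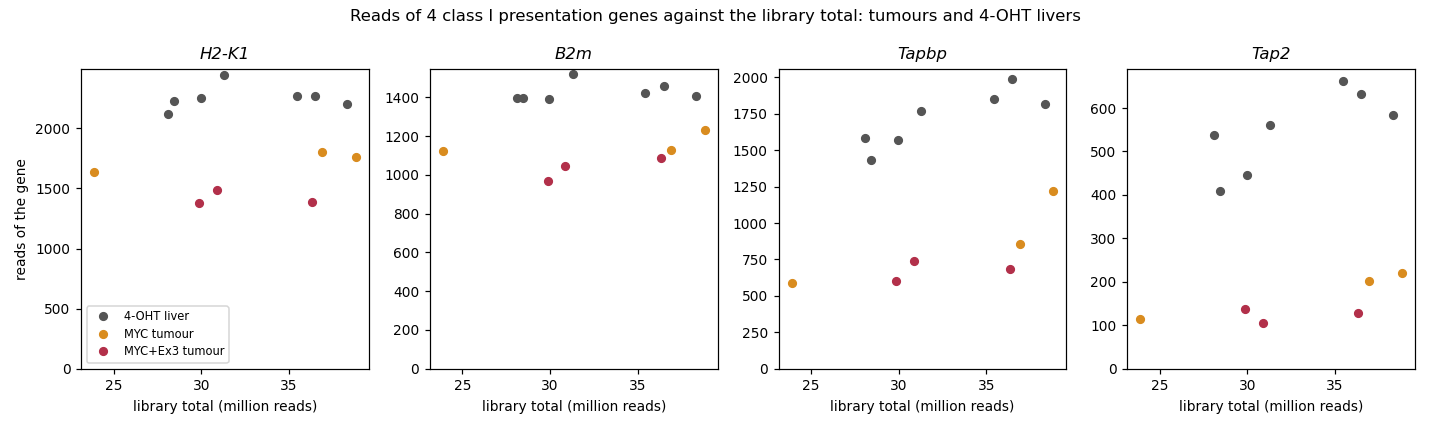
Recovered reads of H2-K1, B2m, Tapbp and Tap2 against the library total in M reads, both on linear scales, for 4-OHT livers, MYC tumours and MYC+Ex3 tumours. Points are libraries. Reads of H2-K1 and B2m vary little with the total within a group (slopes 0.11 and 0.13), and those of Tapbp and Tap2 rise with it (0.99 and 1.13). These slopes are of log2 reads on the log2 total with group means removed, and are not drawn. The MYC tumour with the lowest total stands apart on the horizontal axis.

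Nlrc5, the class I transactivator, was the most variable of the 10 genes among the tumours. It had 3.61 to 5.58 RPKM in 4-OHT livers (median 4.02), 4.36, 1.37 and 0.571 in MYC tumours and 0.406, 0.571 and 0.274 in MYC+Ex3 tumours. MYC tumour replicate 1 lay within the liver range, the other 2 below it, and the 3 MYC+Ex3 tumours were low. In reads, 729 to 1379 in the livers stood beside 727, 372 and 147 in MYC tumours and 103, 119 and 59 in MYC+Ex3 tumours. The log2 change was -0.95 ± 0.265 in MYC tumours (limma adjusted p = 0.00872) and -1.89 ± 0.265 in MYC+Ex3 tumours (limma adjusted p = 3.42e-05). Without MYC tumour replicate 3 the first was -0.56 and no longer passed the test (limma adjusted p = 0.0754), and without replicate 1 it was -1.44. Against the S15 livers alone its adjusted p was 0.0701 (limma).

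MYC+Ex3 tumours were also compared with MYC tumours. The groups differ in the Ex3 allele, but the labels give neither age, time nor treatment for them. All 3 MYC tumours and 2 of the 3 MYC+Ex3 tumours were from males. The allele and these other differences therefore cannot be told apart. Only Psmb8 of the 10 genes passed the test, and it was lower, where 4.13% of all genes passed and 2.1% of all were lower. Its log2 change was -0.57 ± 0.145 (limma adjusted p = 0.0415). The values of all 10 genes had a negative sign, with a median log2 change of -0.30 beside 0.03 for all genes tested. The 3 MYC+Ex3 tumours lay below the 3 MYC tumours without overlap for Tap1, Tap2, Psmb8 and Psmb9, as they did for 7.71% of all genes. The largest difference was that of Nlrc5, -0.94 ± 0.314, which did not pass the test (limma adjusted p = 0.119). The 3 MYC tumours themselves ranged from 0.571 to 4.36 RPKM.

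The call on Psmb8 rested on the whole set of libraries. It was lost without any 1 of the MYC+Ex3 tumours (limma adjusted p = 0.108 to 0.134), without MYC tumour replicate 2 (0.0929), with a covariate for sex (0.0729), with weights on libraries (0.0753), when only these 6 tumours were fitted (0.213), without scaling of the reads (0.133) and without any 1 of 4-OHT livers 2 to 6 (0.0536 to 0.0632). Nlrc5 passed the test without MYC tumour replicate 3, with a log2 change of -1.34 (limma adjusted p = 0.00936), and in reads without scaling, with -1.92 (limma adjusted p = 0.0339). The authors' deposited table calls 1 of the 10 genes lower in this comparison, Nlrc5, with a log2 fold change of -1.43 and an adjusted p of 0.0259, and gives Psmb8 a log2 fold change of -0.68 with an adjusted p of 0.0507. Psmb8 to Psmb5 differed by -0.70 between the tumour groups without overlap (exact permutation p = 0.1, the smallest that 3 against 3 allow, adjusted 0.267).

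In the short-term livers the class I presentation genes did not pass the test in any comparison over all libraries with equal weights. Of 10 genes, 0 were called by limma in Ex3, MYC or MYC+Ex3 livers against wild type, in MYC+Ex3 against MYC or Ex3 livers, or in the interaction of both alleles. Among 13688 genes tested, 0.132%, 22.3%, 24.1%, 0.19%, 21.1% and 0% were called in these comparisons. At an unadjusted p under 0.05, limma gave 1 of the 10 genes in MYC livers against wild type, Psmb10, where 35.3% of all genes had such a p. It gave 0 of 10 in the others, beside 36.5% of all genes in MYC+Ex3 livers against wild type and 33.4% against Ex3 livers. The authors' deposited table likewise calls 0 of the 10 in the 4 of these comparisons it holds. For each of the 10 genes the groups overlapped in all 5 comparisons of groups, where 1.59%, 13.3%, 17.2%, 0.679% and 20.3% of all genes did not overlap. The median log2 changes of the 10 genes were 0.06, -0.07, -0.13, -0.05 and -0.22 in the 5 comparisons of groups, and those of all genes were 0.01, 0.07, 0.05, -0.01 and 0.03.

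**Figure D4:**
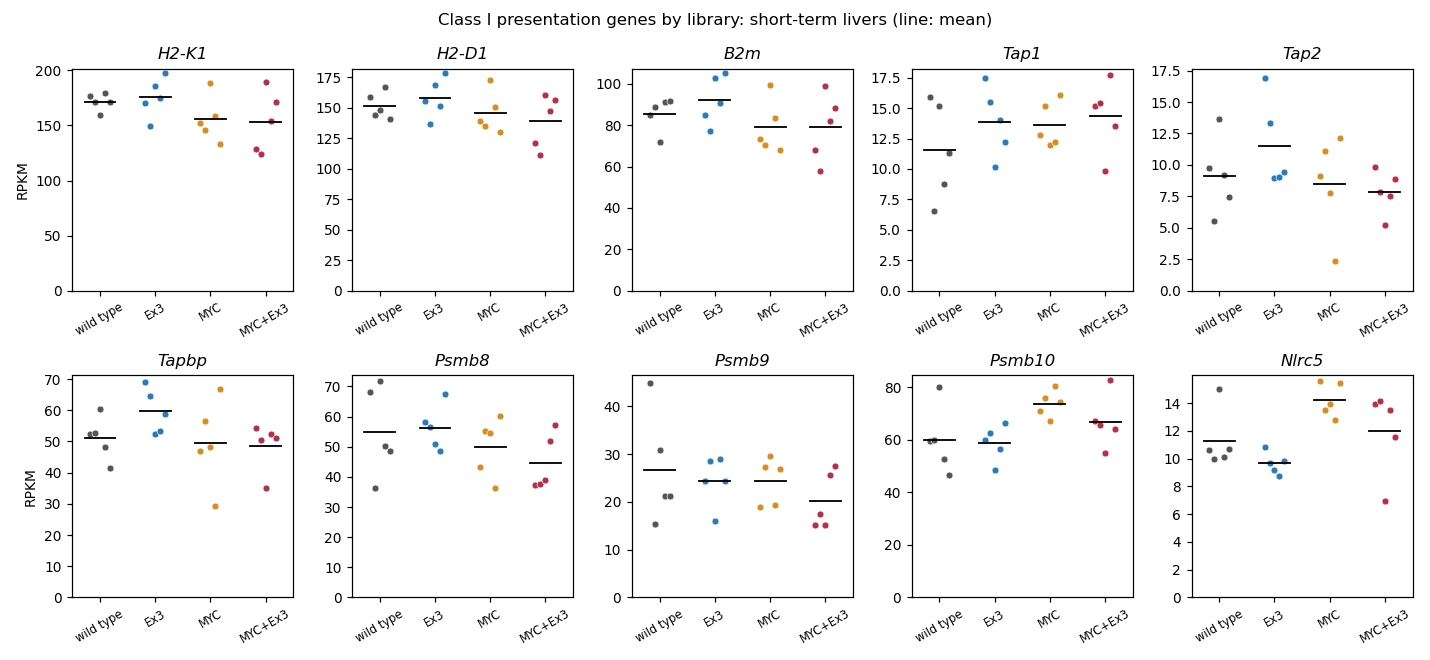
RPKM of each of the 10 genes (1 panel each) by library in wild-type, Ex3, MYC and MYC+Ex3 short-term livers (5 each). Points are libraries and lines are group means. The MYC, Ex3 and MYC+Ex3 livers each overlap the wild-type livers for every gene, and Tap1 and Psmb9 spread widely among the 5 wild-type livers, from 6.57 to 15.9 and from 15.3 to 44.9.

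The heavy chain H2-K1 had 177, 171, 159, 179 and 171 RPKM in the 5 wild-type livers, 170, 150, 186, 175 and 198 in Ex3 livers, 153, 146, 189, 158 and 133 in MYC livers and 129, 124, 189, 154 and 171 in MYC+Ex3 livers. The libraries of the 3 other groups spread over a wider range than the wild-type livers, and the ranges of all groups overlapped. The log2 change of H2-K1 was -0.15 in MYC livers (95% interval -0.39 to 0.09, limma adjusted p = 0.388), while MYC+Ex3 livers had -0.18 (-0.41 to 0.06, limma adjusted p = 0.276). H2-D1 and B2m moved by -0.06 and -0.12 in MYC livers and by -0.13 and -0.13 in MYC+Ex3 livers. With weights on libraries these chains passed the test in MYC+Ex3 livers against wild type, H2-K1 at -0.36 (limma adjusted p = 0.00474), H2-D1 at -0.30 (limma adjusted p = 0.017) and B2m at -0.34 (limma adjusted p = 0.0285). So did Psmb8 at -0.42 and Tap1 at 0.42, in a fit that called 46.9% of all genes. Reads of these 3 genes varied less with the library total here too, with slopes of 0.39, 0.51 and 0.22 beside a median of 1.2 for all genes.

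Most MYC livers had more Psmb10 and Nlrc5 than most wild-type livers. Psmb10 had 59.5, 60.1, 80.1, 52.6 and 46.6 RPKM in wild-type livers, 59.8, 62.5, 48.4, 56.3 and 66.3 in Ex3 livers, 71.0, 75.9, 67.0, 80.6 and 74.2 in MYC livers and 67.2, 65.6, 54.8, 82.6 and 64.2 in MYC+Ex3 livers. All 5 MYC livers lay above 4 of the 5 wild-type livers, the exception being wild-type replicate 3. The log2 change was 0.32 (95% interval 0.05 to 0.59, limma adjusted p = 0.079). Nlrc5 had 10.6, 9.95, 15, 10.1 and 10.7 RPKM in wild-type livers, 15.6, 13.5, 13.9, 12.8 and 15.5 in MYC livers and 13.9, 14.2, 6.92, 13.5 and 11.5 in MYC+Ex3 livers. Here too only wild-type replicate 3 fell among the MYC livers, and the log2 change was 0.32 (limma adjusted p = 0.144). Without wild-type replicate 3 the change of Psmb10 was 0.43 and passed the test (limma adjusted p = 0.0131). With weights on libraries both genes passed it, Psmb10 at 0.35 (limma adjusted p = 0.0373) and Nlrc5 at 0.38 (limma adjusted p = 0.04), and without MYC+Ex3 replicate 3 Nlrc5 did (limma adjusted p = 0.0495). Among libraries with little keratin RNA, 2 wild-type and 4 MYC livers, Psmb10 differed by 0.06 (limma adjusted p = 0.82) and Nlrc5 by 0.19 (limma adjusted p = 0.505).

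In wild-type livers the levels of Psmb8 and Psmb9, and also of Tap1, Tap2 and B2m, split along the keratin RNA, as library depth did. Psmb8 had 68.1, 36.1, 71.8, 50.1 and 48.5 RPKM in wild-type livers and 37.2, 37.8, 38.8, 51.8 and 57.0 in MYC+Ex3 livers. Psmb9 had 44.9, 15.3, 30.9, 21.2 and 21.2 RPKM in wild-type livers and 15.1, 17.5, 15.2, 25.6 and 27.6 in MYC+Ex3 livers. The 2 wild-type livers with little keratin RNA, replicates 1 and 3, held the highest levels of Psmb8 and Psmb9. The same 2 livers held the highest Tap1 (15.1 to 15.9 RPKM, beside 6.57 to 11.3 in those with keratin RNA) and Tap2 (9.77 to 13.6, beside 5.50 to 9.17). B2m went the other way, with 71.7 to 84.7 RPKM beside 88.6 to 91.6. Over all libraries Psmb8 differed by -0.28 on the log2 scale (limma adjusted p = 0.277) and Psmb9 by -0.34 (limma adjusted p = 0.335). Among libraries with little keratin RNA, 2 in each of these groups, the differences were -0.88 for Psmb8 (limma adjusted p = 0.0034) and -1.15 for Psmb9 (limma adjusted p = 0.0079). Among the 3 libraries with keratin RNA in each group the means went the other way, from 44.9 RPKM in wild-type to 49.2 in MYC+Ex3 livers for Psmb8 and from 19.2 to 22.8 for Psmb9. In both groups the libraries with little keratin RNA also had the most reads in genes. They held 5.38 and 6.06 M beside 4.38 to 4.86 M in wild-type livers, and 6.57 and 7.31 M beside 3.75 to 5.10 M in MYC+Ex3 livers. Keratin RNA and depth therefore cannot be told apart here, and the part of either in these values was not tested. The ratio of Psmb8 to Psmb5 was lower in MYC+Ex3 than in wild-type livers by -0.43, with overlap (exact permutation p = 0.0397, adjusted 0.159).

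**Figure D5:**
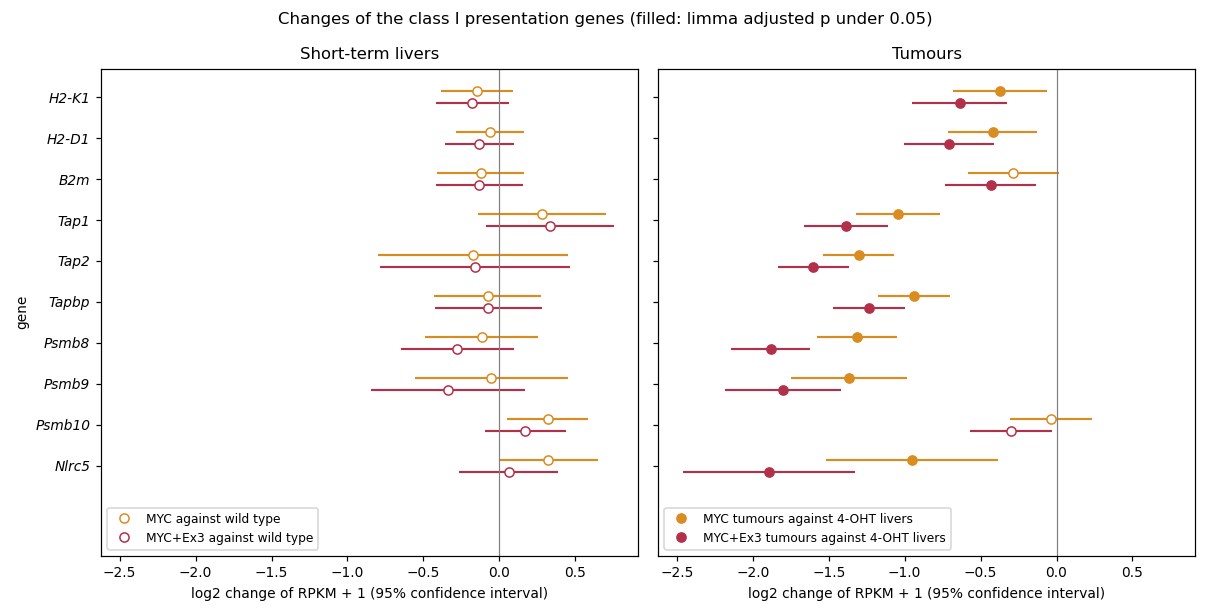
Log2 changes of the 10 genes on the log2(RPKM + 1) scale, with 95% intervals from limma. Drawn are MYC and MYC+Ex3 short-term livers against wild type, and MYC and MYC+Ex3 tumours against 4-OHT livers. Filled points have an adjusted p under 0.05. In the tumour arm the changes from 4-OHT livers run from -0.04 to -1.89, while in the short-term livers every interval except that of Psmb10 in MYC livers includes 0.

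The 10 genes varied together in part. In the tumour arm, over 13 libraries, Pearson correlations of log2(RPKM + 1) were 0.99 between H2-K1 and H2-D1 and 0.99 between Tap1 and Psmb9. They were 0.98 between Tap1 and Tap2, but 0.52 between Tap1 and Psmb10. In the short-term livers, over 20 libraries, H2-K1 correlated with H2-D1 at 0.94 and with B2m at 0.95, while Tap1 correlated with Tap2, Tapbp, Psmb8 and Psmb9 at 0.43 to 0.54. Other pairs ran in opposite directions there, among them H2-K1 with Nlrc5 (-0.66), Tap1 (-0.51) and Psmb10 (-0.49), and B2m with Nlrc5 (-0.69), Tap1 (-0.54) and Psmb10 (-0.52). These libraries share group differences, depth and scaling, so the values are descriptions. The genes most like the mean of the 10 in the tumour arm were H2-Q7, H2-Q6, Shisa5 and Trim7 (0.99 each) and St6galnac6 (0.98). In the short-term livers they were C1qa and Il3ra (0.86 each), H2-DMb1 (0.84), and Clca3a1 and Igfbp7 (0.83 each).

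Other class I chains were lower in the tumours too. Of 13 such genes tested, 9 were lower in MYC tumours and 11 in MYC+Ex3 tumours (limma), with 0 higher, where 13.7% and 18.4% of all genes were lower. H2-Q7 had log2 changes of -1.38 and -2.44, H2-Q6 -0.84 and -1.30, and H2-T23, the mouse Qa-1 chain, -1.01 and -1.0. Cd1d1, which presents lipids to NKT cells and also pairs with B2m, had 23.6 to 31.3 RPKM in 4-OHT livers, 2.35 to 27 in MYC tumours and 0.685 to 2.83 in MYC+Ex3 tumours. It thus spread widely in MYC tumours and was low in all 3 MYC+Ex3 tumours, with log2 changes of -1.61 and -3.58. In the short-term livers 2 of 16 of these chains were lower in MYC livers and 3 of 16 in MYC+Ex3 livers. Over all 13688 genes tested there, 734 and 846 were lower.

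The partners that trim peptides and fold the heavy chain were little changed. Of 9 such genes, Tapbpl, a tapasin relative, and Erap1, which trims peptides in the endoplasmic reticulum, were lower in MYC tumours (-0.54 and -0.52) and in MYC+Ex3 tumours (-0.65 and -0.48), and the other 7 did not pass the test (limma). Over all genes tested, 13.7% and 18.4% were lower. Of the proteasome activators, Psme3 was higher, by 0.72 in MYC and 0.93 in MYC+Ex3 tumours, while the interferon-inducible Psme1 and Psme2 did not pass the test. Cytosolic peptidases, which degrade proteasome products, were higher in 4 of 6 cases in MYC tumours and 5 of 6 in MYC+Ex3 tumours. Among all genes tested, 36.2% and 42.3% were higher in these 2 comparisons. Thop1, which destroys class I peptides in the cytosol, had the largest rise, 1.98 and 2.16. Psme3 and Thop1 were higher in the short-term livers as well, by 0.82 and 2.10 with MYC and by 0.78 and 1.94 with MYC+Ex3.

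Regulators of the class I genes were lower in part. Of 23 interferon and NF-κB pathway genes tested, 6 were lower and 3 higher in MYC tumours, and 10 were lower and 4 higher in MYC+Ex3 tumours (limma). Among all genes tested, 13.7% were lower and 36.2% higher in MYC tumours, and 18.4% lower and 42.3% higher in MYC+Ex3 tumours. Irf7, a master factor of the type I interferon response, had log2 changes of -1.57 and -2.36. Irf9, a DNA-binding factor of the type I interferon response, had -0.86 and -1.23. Rfx5, the X box factor through which Nlrc5 reaches its promoters, was higher in MYC tumours (0.78) and in MYC+Ex3 tumours (0.60). Between the tumour groups, Irf1 (-0.53, limma adjusted p = 0.044) was lower with Ex3 and Ifngr1, a chain of the interferon γ receptor, was higher (0.79). Ifng itself was at 1 to 4 reads in each 4-OHT liver, 0 in each MYC tumour and 0 or 1 in each MYC+Ex3 tumour, too few to compare.

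Interferon target genes were lower in the tumours as well. Of 27 tested, 22 were lower in MYC tumours and 23 in MYC+Ex3 tumours, with 0 higher and medians of -0.95 and -1.51 (limma). Among all genes tested, 13.7% and 18.4% were lower in these 2 comparisons. The largest log2 changes in MYC tumours were those of the guanylate-binding proteins Gbp3 (-1.96) and Gbp7 (-1.92) and of Ifit1 (-1.57) and Ifit3 (-1.54). In MYC+Ex3 tumours they were those of Iigp1 (-2.89), Ifit3 (-2.61), Gbp3 (-2.60) and Ifit1 (-2.53). Between MYC+Ex3 and MYC tumours 8 of 27 were lower, beside 2.1% of all genes. In the short-term livers 1 of 27 was higher with MYC (Cxcl10, 1.39), beside 2313 of all 13688 genes. With MYC+Ex3 1 of 27 was lower (Irgm2, -0.55), beside 846 of 13688. None of the called genes of any list changed sign under rescaling by the median ratio or when reads were compared without scaling.

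Markers of other liver cells moved with the same tumours. The shares of lower genes over all genes tested were 13.7% in MYC and 18.4% in MYC+Ex3 tumours. Of 8 macrophage markers 7 were lower in MYC and 6 in MYC+Ex3 tumours (limma), among them the Kupffer cell genes Clec4f (-2.44 and -2.43) and Timd4 (-2.11 and -2.40). Their summed level was 109 to 148 RPKM in 4-OHT livers, 26.7 to 114 in MYC tumours and 48.6 to 59.7 in MYC+Ex3 tumours. Endothelial markers were lower in 4 and 5 of 7 cases, with sums of 43.5 to 72.0, 26.6 to 40.6 and 27 to 31.8 RPKM. Class II genes, which mark antigen-presenting cells, were lower in 2 and 6 of 6 cases, with sums of 36.0 to 60.0, 24.3 to 47.9 and 13.3 to 14.9 RPKM. Between MYC+Ex3 and MYC tumours 4 of 6 class II genes were lower, including Cd74 (-1.29), and 0 of 8 macrophage markers. Of all genes tested, 2.1% were lower in that comparison.

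Lymphocyte markers were low throughout. The 12 T and NK cell markers summed to 3.78 to 7.33 RPKM in 4-OHT livers, 1.51 to 8.16 in MYC tumours and 3.48 to 5.58 in MYC+Ex3 tumours, and of the 3 that were tested 0 passed (limma). B cell markers were lower in 0 and 3 of 3 cases, the 1 dendritic cell marker tested was lower in both, and the cholangiocyte markers were lower in 0 and 1 of 2. Of all genes tested, 13.7% and 18.4% were lower. Neutrophil markers were higher in 1 and 4 of 4 cases, where 36.2% and 42.3% of all genes tested were higher. Their sums were 10.0 to 29.5, 10.4 to 88.5 and 90.9 to 115 RPKM. Stellate cell and fibroblast markers were mixed, with 3 higher and 3 lower of 7 in MYC tumours and 1 higher and 4 lower in MYC+Ex3 tumours. No marker of these lists was at 0 in all libraries of a group in the tumour arm. The part of other cell types in the changes of the class I genes was not tested.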

How the data were processed

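Total RNA of 33 mouse livers and tumours was made into strand-specific libraries, per the labels' protocols. The submitters' processing notes name TopHat2 (2.0.8), SAMtools, featureCounts (1.4.5-p1), DESeq2 and the build mm9, with no role or order, and the removal of duplicate reads is not given in the sources used here. The authors deposited RPKM per gene and library. The authors' deposited table also gives, per comparison, a log2 fold change and an adjusted p-value, which were only quoted. 0 columns were set aside. Within a gene, RPKM are whole multiples of 1 read, so reads were recovered for 20485 genes (within 0.02 of a whole read); 1186 genes are at 0. Depth in genes had medians of 4.98 M (short-term) and 8.25 M (tumour arm), and the RPKM totals of the tumour arm exceed it, as 22.2% to 29.6% of them lie in genes.

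Groups follow the titles, genotypes and treatments. The test was limma 3.58.1 (R 4.3.3) on log2(RPKM + 1), two-sided, with an empirical Bayes trend, over genes with an RPKM of at least 1 in at least 3 libraries, Benjamini-Hochberg adjusted per comparison over all genes tested and called at 0.05. Each arm was fitted whole, for 9 comparisons in all. Ratios of 3 pairs of subunits were compared by exact permutation tests (scipy 1.17.1), adjusted over 24. The members, lists and alternatives were chosen with earlier results of these data known, except 2 scalings (reads in genes, unscaled reads), a covariate for the number series of the titles and the scaling of the lists, which were added after seeing the data. From other lists the text names up to 4 called genes a comparison by size of change, and 1 gene that the rule names is not reported here. Likeness is Pearson's r with the mean z-score of the 10 genes. The test was checked on simulated data. Promoter sequences are from RefSeq.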

Additional observations from a re-analysis of the deposited data

Results flagged for a closer look

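In 50 groups of values (10 genes in the 5 groups of 4 to 10 libraries), 2 held a library far from the others of its group, where chance gives about 1 in 20. Tapbp was lowest in MYC+Ex3 short-term liver replicate 3, at 35.1 RPKM, while the other 4 livers of that group had 50.4 to 54.2. That library had the fewest reads in genes of its arm, 3.75 M. Nlrc5 was highest in wild-type short-term liver replicate 3, at 15 RPKM, while the other 4 had 9.95 to 10.7. The same liver had the highest Psmb10 of its group, 80.1 RPKM.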

How the results depend on the processing

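No paired analysis was possible because no animal number in the labels is shared between groups. The lowest run of numbers spans all 4 short-term groups, and with a covariate for it, which the labels do not explain, 0 of 10 genes were called in each short-term comparison. No called change reversed its sign. Of 2606 refits of single genes 2538 kept the side of the threshold, 34 lost and 34 gained a call; of 252 refits of the subunit ratios 227 kept it, 21 lost and 4 gained it. With weights on libraries, MYC livers against wild type held 2 called genes of 10, and MYC+Ex3 livers 5 against wild type and 5 against Ex3, where these fits called 27.2%, 46.9% and 49.0% of all genes. Libraries with little keratin RNA gave 2 and 1 in the last 2 comparisons, beside 22.5% and 17.3% of all genes. Against the S15 livers only, MYC tumours held 5 called genes of the 10. MYC+Ex3 against MYC tumours held 0 when fitted alone, with weights (beside 2.62% of all genes) and with a sex covariate. With 1 library left out, counts were 0 to 1 in MYC livers against wild type and in MYC+Ex3 against Ex3 livers, 5 (without MYC tumour replicate 3) to 9 in MYC tumours, 8 to 10 in MYC+Ex3 tumours and 0 to 2 between the tumour groups. Shares of all genes are not given for the S15 fits, the tumour groups fitted alone, the sex covariate or the fits with 1 library left out. Their counts therefore do not show a shift particular to the 10 genes. The cause of the shifts was not tested.

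The ratio differences with 1 library left out ran, for Psmb8 to Psmb5, from -0.53 to -0.34 (MYC+Ex3 livers against wild type), -0.43 to -0.25 (MYC+Ex3 against Ex3 livers), -1.66 to -1.34 (MYC tumours) and -2.29 to -2.09 (MYC+Ex3 tumours). For Psmb9 to Psmb6 they ran from -1.77 to -1.41 and -2.12 to -1.84 in the tumours. For Psmb10 to Psmb7 they ran from 0.23 to 0.48 (MYC livers against wild type), 0.12 to 0.34 (MYC+Ex3 against Ex3 livers) and -0.54 to -0.44 (MYC+Ex3 tumours). Leaving out a tumour raises the smallest p these tests allow above 0.05.

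Rescaling by the median ratio moved the share of higher genes among those called from 75.9% to 59.1% in MYC livers, from 74.4% to 61.2% in MYC+Ex3 livers and from 77.7% to 67.1% in MYC+Ex3 against Ex3 livers, and reads without scaling moved it to 91.9%, 92.0% and 96.2%. Between the tumour groups it went from 49.1% to 28.9% without scaling. The precision of the tumour comparisons is limited by 3 tumours a group, and for H2-K1, H2-D1 and B2m whether the weak rise of reads with the library total bears on their RPKM changes was not tested.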
